A study of Mus musculus with 32 samples.

Results

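The 9 genes described here encode transcription factors, cofactors and signalling proteins that set the fibre type of skeletal muscle, and they were followed in the mouse gastrocnemius (GAS) muscle for 28 d after the sciatic nerve was cut. They are Six4, Eya1, Sox6, Tead1, Tead4, Nfatc1, Ppp3ca, Rcan1 and Vgll2, and they are 9 of the 33397 genes in the deposited expression table. They were chosen by name for what they encode, with earlier results of these data known. All 9 were matched by Ensembl identifier, and all 9 passed the filter on low values.

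Muscle fibres are slow and oxidative or fast, and fast fibres are oxidative or glycolytic. The motor nerve maintains this identity through its firing pattern. Calcineurin is a calcium- and calmodulin-dependent phosphatase that a slow firing pattern keeps active. It dephosphorylates NFAT factors, which then enter the nucleus and favour slow-fibre genes, and the Rcan proteins bind and restrain it. Homeodomain factors of the Six4 family with their Eya cofactors drive fast-fibre genes, Sox6 represses slow-fibre genes, and Tead factors bind MCAT sites in muscle promoters together with cofactors of the Vgll or Yap type.

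GAS muscles came from young male C57BL/6 mice that carried no engineered allele. The groups were day 0 and 1, 3, 5, 7, 14, 21 and 28 d after sciatic nerve transection, with 4 samples each and 32 in all. The study compares denervated muscle with a nondenervated sham group and lists 0 d among its time points. It does not state that the day 0 samples are the sham animals. The sample labels list transection at every time point, day 0 included, and the control columns of the table were assigned to day 0 because it was the only time point without columns of its own. The tissue is labelled GAS muscle, although the extraction text in the labels speaks of retinas.

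Markers of the muscle fibre were high in every sample. The 7 markers Acta1, Ckm, Ttn, Neb, Des, Mybpc2 and Ryr1 summed to between 17081 and 20407 FPKM on day 0 and to between 10595 and 13080 FPKM on day 28. FPKM is the number of sequenced fragments per kilobase of exon, scaled to the total of the library. Recovered depth was 14199902 to 17561584 fragments per sample, and the 9 genes held between 120 and 6481 fragments each in any sample. Day 3 replicate 1, numbered by the order of the table's columns, stood apart, with a median correlation of 0.966 with its group. The mitochondrial genome took 14.5% to 18.2% of the day 0 fragments and 6.69% to 13.5% of those from day 3 onwards. The median gene with a mean of at least 1 FPKM was 0.12 higher on day 1 and 0.32 higher on day 14 on the log2 scale, so each change below is also given after median-ratio scaling, which sets that shift near 0, where the scaling ends a call. This was bulk tissue, in which fewer cells of a type and less RNA per cell cannot be told apart.

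Tead4 rose most and for longest, Ppp3ca was past the 1.5-fold limit on day 5 and day 7, Rcan1 rose early and again late, Vgll2 and Tead1 fell within 1 d, Eya1 fell by day 3, and Six4, Sox6 and Nfatc1 were not called at any time. A gene was called when its limma test on log2(FPKM + 1), with Benjamini-Hochberg adjustment over all 22071 genes tested, gave an adjusted p under 0.05 and a change of at least 1.5-fold. All comparisons with day 0 share the same 4 control samples. Over the whole course, 7 of the 9 genes differed between time points by limma's F-test, against 63.2% of all genes tested. The exceptions were Six4 (adjusted p = 0.285) and Nfatc1 (adjusted p = 0.104), and after median-ratio scaling 8 of the 9 differed, Nfatc1 among them. The limma p-values rest on the spread between samples within a group, pooled over all 8 groups and moderated with that of other genes. They do not rest on the spread of the compared groups alone. The study describes its samples as biologically independent.

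**Figure D1:**
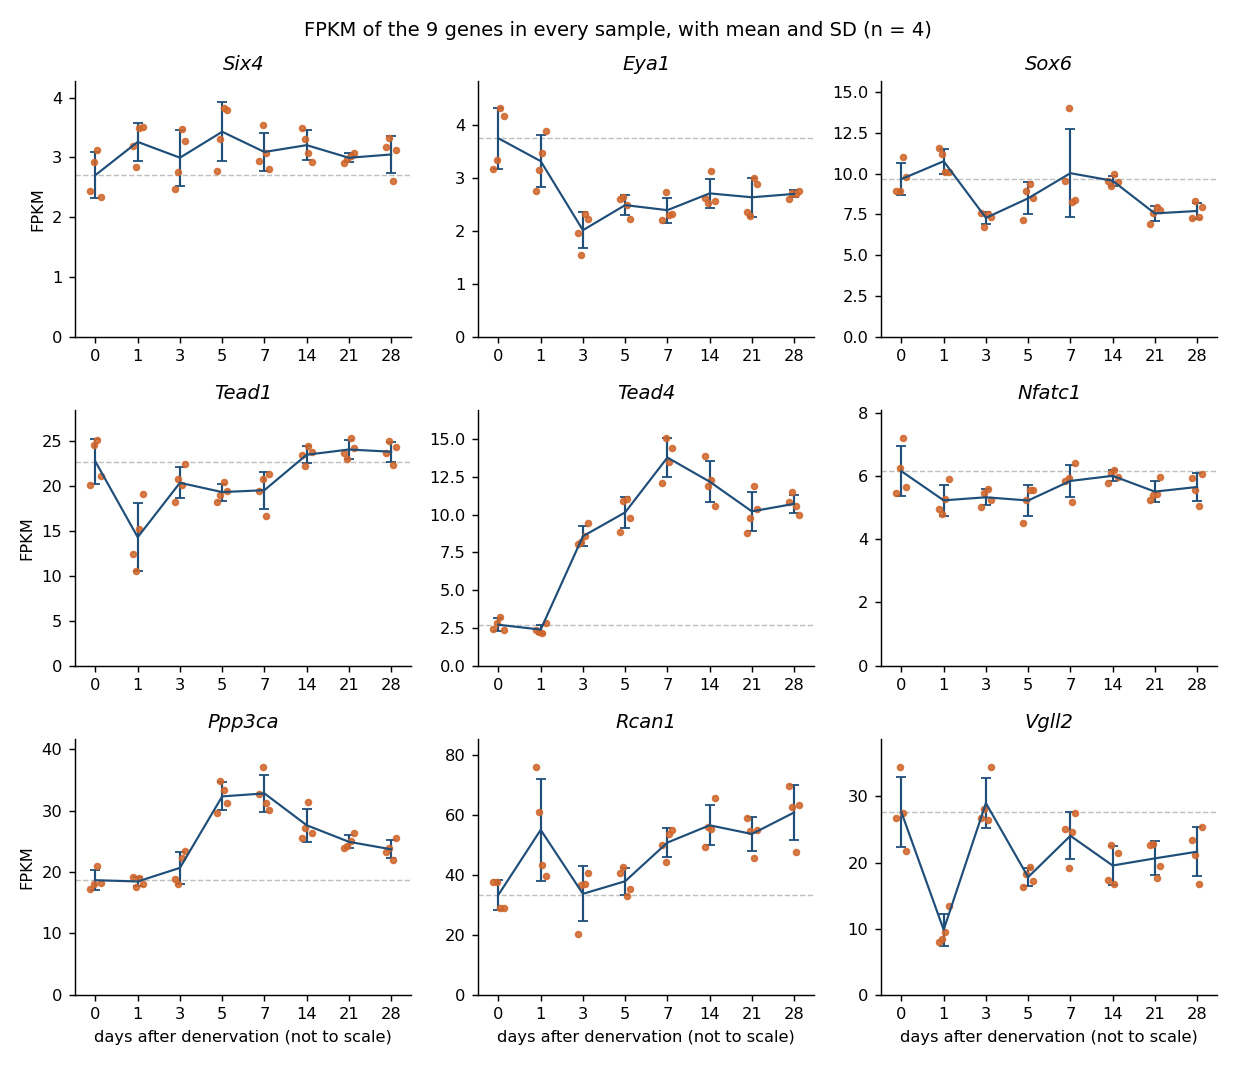
FPKM (vertical axes, each from 0) of the 9 genes against days after denervation, drawn at equal steps; orange points are the 4 samples of a day, blue lines and bars are means and SD, and the dashed line is the day 0 mean. Tead4 stands between 8.02 and 15.1 FPKM in every sample from day 3 onwards, above its highest day 0 sample at 3.24 FPKM, whereas Vgll2 dips on day 1 to between 8.02 and 13.4 FPKM.

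On day 1, 1 of the 9 genes rose (Rcan1) and 2 fell (Tead1 and Vgll2), against 6.34% of all genes called higher and 2.49% called lower. On day 3, Tead4 rose and Eya1 fell, against 13.2% called higher and 6.03% called lower. On day 5, Tead4 and Ppp3ca rose and Vgll2 fell, against 14.9% and 3.86%. On day 7, Tead4, Ppp3ca and Rcan1 rose, against 15.4% called higher, with 4.1% called lower. On day 14, 21 and 28 the called genes were Tead4 and Rcan1, both higher, against 14.6%, 11.8% and 14.2% called higher and 3.83%, 3.93% and 4.1% called lower. After median-ratio scaling, Rcan1 was no longer called and Tead4 was the 1 gene called higher on each of these days, while 2 genes were called lower on day 14 (Eya1 and Vgll2) and 3 on day 21 and day 28 (Eya1, Sox6 and Vgll2). The same scaling gave 0 higher and 2 lower on day 1, and 1 higher and 3 lower on day 5 (Tead1 among them, at -0.59). On day 7 it gave 1 higher and 1 lower. The shares of all genes above are for the values as deposited, so the counts after scaling have no such share beside them. The median of the 9 log2 fold changes lay between -0.17 on day 5 and 0.08 on day 21, where the medians over all genes tested were 0.13 and 0.10. After median-ratio scaling the median of the 9 genes was negative at each of the 7 later times, between -0.21 on day 21 and -0.52 on day 5. Of all called genes, 68.7% to 79.5% were higher as deposited, and 44.8% to 49.6% after median-ratio scaling.

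**Figure D2:**
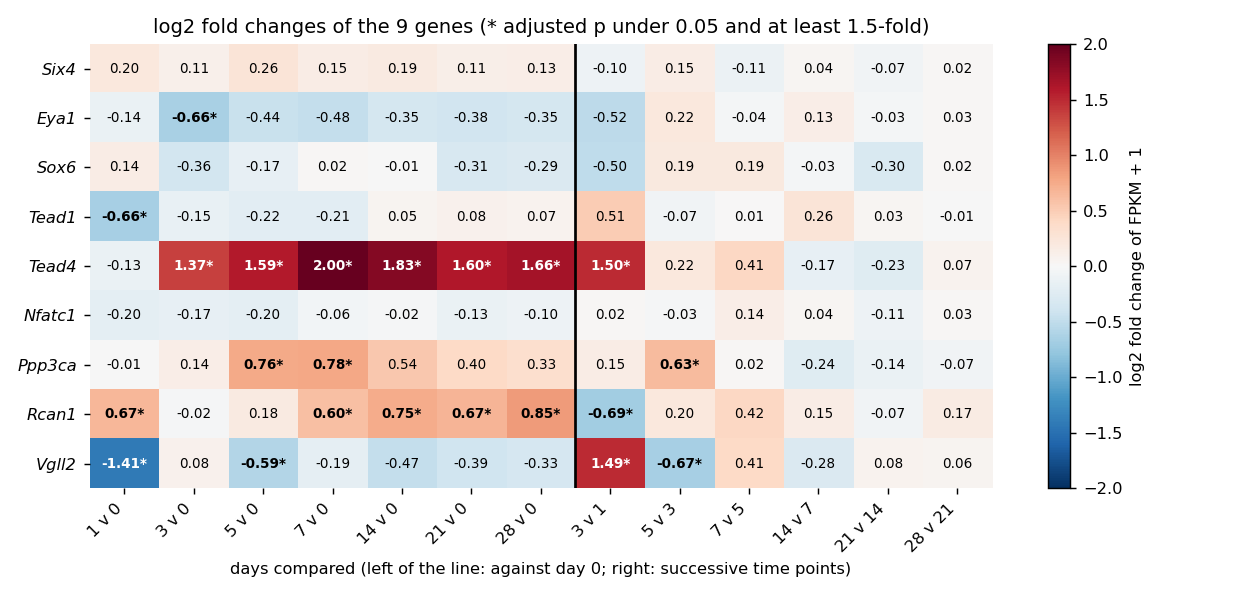
log2 fold changes of FPKM + 1 for the 9 genes (rows) in 7 comparisons with day 0 and 6 comparisons of successive time points (columns); red is higher at the later time, blue is lower, and bold values with an asterisk were called. Called values gather in Tead4, Rcan1 and Vgll2, with the largest rise for Tead4 on day 7 (2.00) and the largest fall for Vgll2 on day 1 (-1.41).

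Tead4 encodes a Tead factor known for its part in myoblast differentiation. Tead4 (ENSMUSG00000030353) lies on chromosome 6 from 128224288 to 128300823 on the minus strand of GRCm38. It measured 2.42, 2.85, 3.24 and 2.33 FPKM on day 0 and 2.35, 2.26, 2.14 and 2.81 FPKM on day 1, so these groups overlapped. On day 3 it measured 8.02, 8.19, 8.59 and 9.47 FPKM, above every earlier sample. The log2 fold change of day 3 against day 1 was 1.499 ± 0.09 (SE, adjusted p = 3.46e-13 by limma), and 1.53 without day 3 replicate 1. The rise of Tead4 thus began between day 1 and day 3.

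Tead4 was highest on day 7, at 12.1, 15.1, 13.5 and 14.4 FPKM, or 5.09-fold the day 0 mean. From day 14 it measured 13.9, 11.9, 12.3 and 10.6 FPKM, on day 21 8.76, 9.77, 11.9 and 10.4 FPKM, and on day 28 10.8, 11.5, 10.6 and 9.96 FPKM. No successive step after day 3 was called for Tead4: day 7 against day 5 gave 0.41 (adjusted p = 0.0164), under the 1.5-fold limit, day 5 against day 3 gave 0.22, and the steps after day 7 gave -0.17, -0.23 and 0.07. Against day 0, Tead4 was called from day 3 to day 28 in each of the 10 other settings and each of the 32 fits that left out 1 sample.

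Tead1 encodes the Tead factor with the highest level in this muscle. Tead1 (ENSMUSG00000055320; chromosome 7, 112679318 to 112906807, plus strand) measured 20.1, 24.6, 25.1 and 21.1 FPKM on day 0. On day 1 it fell to 12.4, 10.5, 15.2 and 19.1 FPKM, all below the lowest day 0 sample. The log2 fold change was -0.66 ± 0.11 (SE, adjusted p = 1.7e-05 by limma). The highest of these samples came close to day 0, and without day 1 replicate 2, the lowest, the fall was -0.53 and no longer reached 1.5-fold, nor did it when FPKM was rescaled to TPM (-0.57). By day 3 Tead1 was at 18.2 to 22.4 FPKM and overlapped day 0 again. From day 14 to day 28 all its samples lay between 22.2 and 25.4 FPKM.

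The balance of the Tead genes therefore differed between day 0 and every later day. Tead4 stood at 12.0%, 11.6%, 12.9% and 11.1% of Tead1 FPKM in the 4 day 0 samples. On day 1 the ratio was 18.9%, 21.6%, 14.1% and 14.7%, when Tead1 was low and Tead4 was not higher. On day 7 it was 62.2%, 72.4%, 81.0% and 67.9%, and on day 28 45.6%, 45.9%, 47.6% and 40.9%. The ratio within a sample was higher than on day 0 at each of the 7 later days (two-sided exact permutation p = 0.0286 each, the smallest that 4 against 4 allows; adjusted p = 0.0286 over the 7 days). Tead4 made up 9.96% ± 0.61 of the summed FPKM of the 4 Tead genes on day 0 and 38.9% ± 2.78 on day 7 (SD, n = 4).

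**Figure D3:**
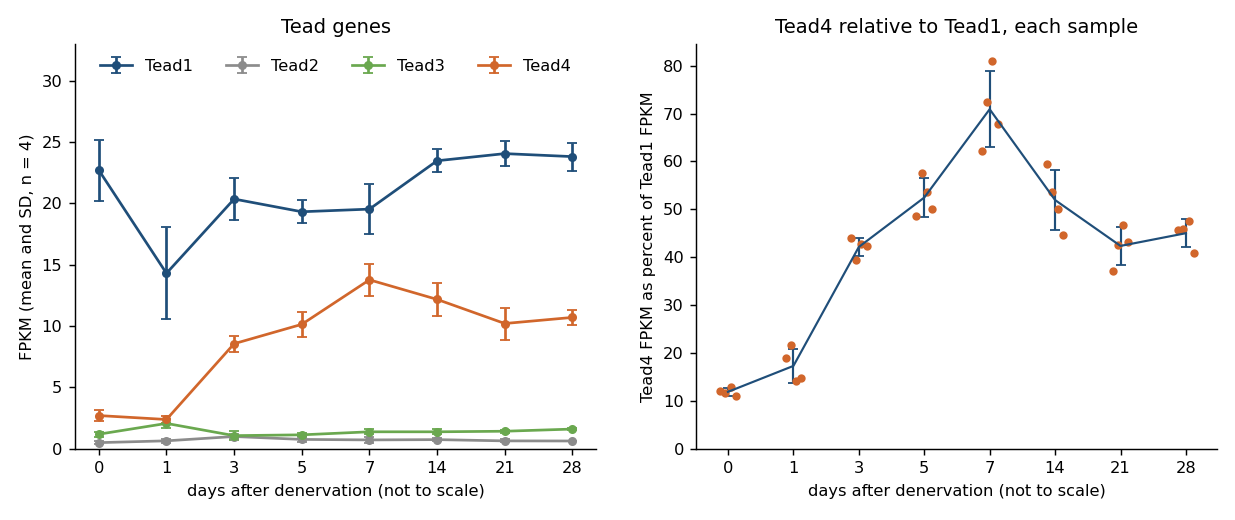
Left, mean FPKM with SD (n = 4) of Tead1 to Tead4 by day; right, Tead4 FPKM as a percent of Tead1 FPKM in each sample (points) with mean and SD. Tead4 climbs between day 1 and day 3 while Tead1 recovers, and the ratio peaks on day 7 at 70.9% against 11.9% on day 0.

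Vgll2 encodes a vestigial-like cofactor that binds Tead factors in skeletal muscle. Vgll2 (ENSMUSG00000049641; chromosome 10, 52022502 to 52028471, plus strand) measured 26.7, 34.5, 27.5 and 21.7 FPKM on day 0 and fell to 8.02, 8.39, 9.55 and 13.4 FPKM on day 1. The highest day 1 sample stayed below the lowest day 0 sample. The log2 fold change was -1.41 ± 0.15 (SE, adjusted p = 1.33e-08 by limma). On day 3 Vgll2 was back at 26.8, 28.1, 26.5 and 34.5 FPKM, which overlapped day 0, and the step from day 1 was 1.49 (adjusted p = 3.67e-09).

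Vgll2 then fell again, to 16.3, 18.3, 19.3 and 17.2 FPKM on day 5, below all samples of day 3 and day 0. The step from day 3 was -0.67 (adjusted p = 0.0011), and day 5 against day 0 was -0.59 (adjusted p = 0.00153). The fall from day 0 did not reach 1.5-fold without day 0 replicate 2 (-0.48), day 5 replicate 1 (-0.55) or day 5 replicate 4 (-0.58), and the step from day 3 did not without day 3 replicate 4 (-0.58). Rescaled to TPM, the fall from day 0 was -0.42. On day 7 it measured 25.0, 19.1, 24.6 and 27.5 FPKM, and from day 14 to day 28 its samples lay between 16.7 and 25.3 FPKM, overlapping day 0 at each time. After median-ratio scaling day 14, day 21 and day 28 stood at -0.85, -0.69 and -0.70 on the log2 scale against day 0 and were called.

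The promoter of Vgll2 is shown because this gene had the steepest fall of the 9. The window is the 250 bases before its RefSeq start, chr10:52022252-52022501 of GRCm38 on the plus strand, with NFAT core matches (GGAAA on either strand) in capitals. These matches begin 241, 225, 96 and 78 bases before the start. The MCAT motif GGAATG, which Tead factors bind, was not in these letters on either strand. At least 4 NFAT cores were in 1.59% of the 32851 promoter windows of this length, at least 1 in 55.6%, and an MCAT motif in 12.6%. A match is a description of the letters.

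Vgll2: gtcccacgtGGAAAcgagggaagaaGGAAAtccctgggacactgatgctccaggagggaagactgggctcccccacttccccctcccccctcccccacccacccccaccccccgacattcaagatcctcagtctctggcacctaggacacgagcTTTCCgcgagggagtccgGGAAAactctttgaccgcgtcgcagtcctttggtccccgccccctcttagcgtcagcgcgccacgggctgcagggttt

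The list of Tead factors, cofactors and targets holds 16 genes, all of them tested, and includes Tead1, Tead4 and Vgll2. Of these 16, 7 rose and 1 fell on day 3 (13.2% and 6.03% of all genes). On day 28, 4 rose and 1 fell (14.2% and 4.1% of all genes). Tead4 was among those that rose on both days. The median of the list was 0.42 on day 3 and 0.19 on day 28 on the log2 scale, beside 0.06 and 0.14 over all genes tested, and 0.30 and 0.013 after median-ratio scaling. Ankrd1, a stretch-responsive muscle ankyrin repeat gene and a Yap target, rose from 3.84 ± 1.09 FPKM on day 0 to 1360.4 ± 78.6 FPKM on day 3 (SD, n = 4). Ccn1, another Yap target, rose from 13.4 ± 0.54 to 88.7 ± 33.6 FPKM on day 3, with a wide spread between the day 3 samples. Vgll4, a cofactor that competes with Yap for Tead binding, fell from 6.04 ± 0.41 to 2.90 ± 0.49 FPKM. The Yap-type coactivator genes Yap1 and Wwtr1 rose on day 3 to 11.6 and 21.4 FPKM, from 6.97 and 13.2 FPKM, and after median-ratio scaling these rises were 0.45 and 0.44 on the log2 scale and short of 1.5-fold.

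Six4 encodes a homeodomain factor that acts on fast-fibre promoters. Six4 (ENSMUSG00000034460; chromosome 12, 73099609 to 73113456, minus strand) measured 2.43, 2.93, 3.13 and 2.33 FPKM on day 0. Its largest difference from day 0 was on day 5, at 2.78, 3.31, 3.82 and 3.80 FPKM, with a log2 fold change of 0.26 (adjusted p = 0.0204), which was not called. Every sample of the course lay between 2.33 and 3.82 FPKM.

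Eya1 encodes a phosphatase and coactivator that works with Six4 and its relatives. Eya1 (ENSMUSG00000025932; chromosome 1, 14168954 to 14310235, minus strand) measured 3.17, 3.34, 4.31 and 4.16 FPKM on day 0 and 2.75, 3.14, 3.47 and 3.89 FPKM on day 1, which overlapped. On day 3 it fell to 1.96, 1.55, 2.31 and 2.22 FPKM, with no overlap with day 0. The log2 fold change was -0.66 ± 0.09 (SE, adjusted p = 1.08e-06 by limma) and -0.65 without day 3 replicate 1. Without day 3 replicate 2, the lowest, it was -0.58 and short of 1.5-fold.

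Eya1 samples from day 5 onwards were all below the lowest day 0 sample, with log2 fold changes between -0.35 and -0.48 and adjusted p between 9.49e-05 and 0.00265, under the 1.5-fold limit. After median-ratio scaling they were between -0.63 and -0.77, and past that limit. Day 28 was the tightest group, at 2.60, 2.72, 2.70 and 2.75 FPKM.

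Eya3 and Eya4 did not share this direction, and Eya2 was not called at any time, with means of 2.48 FPKM on day 0 and 1.90 to 2.46 FPKM later. Eya4 rose from 6.51 ± 0.59 FPKM on day 0 to 14.1 ± 0.36 FPKM on day 1 and was called higher at all 7 later times, although its day 3 change was 0.44 after median-ratio scaling and short of 1.5-fold. Eya3 rose from 3.46 ± 0.32 to 6.82 ± 0.41 FPKM on day 5 (SD, n = 4) and was called from day 3 onwards, although after median-ratio scaling its changes from day 3 were between 0.40 and 0.50 and short of 1.5-fold. Eya1 made up 23.0% of the summed FPKM of the 4 Eya genes on day 0 and 10.4% on day 28, and Eya4 40.2% and 55.4%. In the list of 10 genes of the Six4, Eya and Dach families, 2 rose and 4 fell on day 3 (13.2% and 6.03% of all genes). Eya1 was among the 4 that fell. The list median was -0.24 beside 0.06 over all genes tested, and -0.44 after median-ratio scaling. Six2 fell from 4.07 to 1.11 FPKM on day 21, and Dach2, a corepressor known to respond to muscle innervation, fell from 0.915 to 0.037 FPKM on day 28. Dach2 was low at every time, and its fold change depends on the pseudocount of 1.

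Sox6 encodes an HMG-box factor that represses slow-fibre genes. Sox6 (ENSMUSG00000051910; chromosome 7, 115470872 to 116038796, minus strand) measured 8.92, 8.91, 11.0 and 9.82 FPKM on day 0 and 11.6, 11.2, 10.1 and 10.1 FPKM on day 1. On day 3 it measured 7.56, 6.74, 7.51 and 7.33 FPKM, below every sample of day 0 and day 1. The log2 fold change from day 0 was -0.36 (adjusted p = 0.00454) and from day 1 -0.50 (adjusted p = 0.000256), both under 1.5-fold. On day 7 the samples were 9.53, 13.96, 8.23 and 8.38 FPKM, with replicate 2 above every other sample of the course. Day 21 (6.93, 7.56, 7.98 and 7.77 FPKM) and day 28 (7.29, 8.29, 7.32 and 7.94 FPKM) again lay below day 0, with log2 fold changes of -0.31 and -0.29. After median-ratio scaling these were -0.59 and -0.64, past the 1.5-fold limit.

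In the list of 17 SoxD and other fibre-type transcription factors, 2 rose and 4 fell on day 3 (13.2% and 6.03% of all genes), and 3 rose and 3 fell on day 28 (14.2% and 4.1% of all genes). Its median was 0.03 on day 3 and -0.06 on day 28, beside 0.06 and 0.14 over all genes tested, and -0.17 and -0.42 after median-ratio scaling. Hdac4, a class II deacetylase known to rise after loss of innervation, rose from 2.22 ± 0.31 to 15.4 ± 1.75 FPKM on day 5. Mef2a, a MADS-box factor of muscle genes, rose from 11.0 ± 1.07 to 39.1 ± 2.50 FPKM on day 28. Mafa and Maf, large Maf factors of the fastest fibres, fell from 12.4 to 2.45 FPKM on day 1 and from 21.02 to 6.18 FPKM on day 21.

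Ppp3ca encodes the alpha catalytic subunit of calcineurin. Ppp3ca (ENSMUSG00000028161; chromosome 3, 136670124 to 136937727, plus strand) measured 17.3, 18.1, 20.98 and 18.3 FPKM on day 0, 19.2, 17.6, 19.0 and 18.1 FPKM on day 1 and 18.9, 18.1, 22.3 and 23.4 FPKM on day 3. These 3 groups overlapped. On day 5 it rose to 29.7, 34.9, 33.4 and 31.3 FPKM, above every earlier sample. The step from day 3 was 0.63 ± 0.08 (SE, adjusted p = 6.53e-07 by limma), and 0.59 without day 3 replicate 1. Without day 3 replicate 2 it was 0.57 and after median-ratio scaling 0.47, both short of 1.5-fold.

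Ppp3ca stayed at 32.8, 37.2, 31.2 and 30.2 FPKM on day 7, or 1.76-fold the day 0 mean (log2 fold change 0.78, adjusted p = 1.98e-09). Day 14, at 25.5, 27.2, 31.5 and 26.3 FPKM, was under the 1.5-fold limit, and by day 28 it measured 23.3, 24.0, 22.0 and 25.6 FPKM. The log2 fold changes on day 14, 21 and 28 were 0.54, 0.40 and 0.33, with adjusted p of 1.41e-06, 0.000112 and 0.000861 by limma. All samples from day 5 onwards stayed above the highest day 0 sample. Median-ratio scaling left the day 5 and day 7 changes at 0.39 and 0.42, so neither reached 1.5-fold, and set day 14, 21 and 28 at 0.16, 0.11 and -0.04 (adjusted p = 0.165, 0.367 and 0.795 by limma).

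Ppp3cb, the beta catalytic subunit, moved the other way. It fell from 31.8 ± 1.99 FPKM on day 0 to 20.3 ± 1.41 FPKM on day 3 (SD, n = 4), a log2 fold change of -0.62. It measured 20.3 to 21.9 FPKM on average from then on. Its changes from day 5, in the values as deposited, were between -0.51 and -0.57 and were not called. Ppp3ca made up 32.5% of the summed FPKM of the 3 catalytic subunit genes on day 0 and 52.2% on day 7, and Ppp3cb 55.4% and 34.9%. The summed level was 57.3 ± 3.52 FPKM on day 0 and 62.9 ± 4.63 FPKM on day 7. These family sums were not tested.

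**Figure D4:**
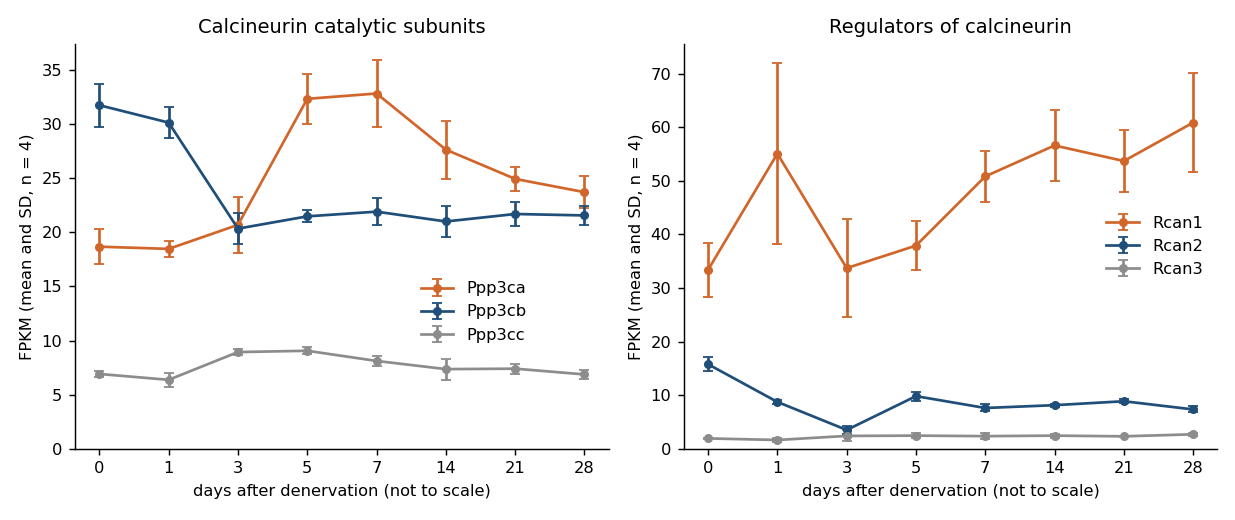
Mean FPKM with SD (n = 4) by day for the calcineurin catalytic subunit genes (left) and the Rcan genes (right). Ppp3ca and Ppp3cb are close on day 3, at 20.7 and 20.3 FPKM, and Ppp3ca is higher from day 5, while Rcan2 falls to 3.51 FPKM on day 3 and Rcan1 is at 55.1 FPKM on day 1 and 60.9 FPKM on day 28.

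Nfatc1 encodes an NFAT factor that calcineurin moves into the nucleus of slow fibres. Nfatc1 (ENSMUSG00000033016; chromosome 18, minus strand) measured 5.47, 6.25, 7.21 and 5.65 FPKM on day 0. Its later samples lay between 4.51 and 6.41 FPKM, and the groups overlapped with day 0 at all 7 times. The log2 fold changes were between -0.20 and -0.02, and the lowest adjusted p was 0.0302, on day 5. After median-ratio scaling they were between -0.36 and -0.53, with adjusted p between 3.66e-08 and 3.06e-05 by limma, all still under 1.5-fold. RNA levels say nothing of where the protein was.

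Rcan1 encodes a regulator that binds calcineurin, and its shorter transcript is known as an NFAT target. Rcan1 (ENSMUSG00000022951; chromosome 16, 92391953 to 92470867, minus strand) measured 37.7, 37.8, 29.0 and 29.0 FPKM on day 0 and rose to 76.2, 61.2, 43.3 and 39.7 FPKM on day 1, with no overlap. The log2 fold change was 0.67 ± 0.18 (SE, adjusted p = 0.00505 by limma), and 0.50 without day 1 replicate 1, short of 1.5-fold. On day 3 it measured 20.2, 36.8, 37.0 and 40.8 FPKM, and the lowest value belonged to replicate 1, the sample that stood apart. The step from day 1 was -0.69 (adjusted p = 0.00367) with that sample, and -0.47 without it, short of 1.5-fold. It was also -0.52, short of 1.5-fold, without day 1 replicate 1, and the adjusted p was 0.0804 in a fit of only those 2 time points. The samples of day 3 overlapped those of day 1.

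Rcan1 rose again from day 7. It measured 50.1, 44.5, 53.7 and 55.0 FPKM on day 7, 49.4, 56.1, 55.3 and 65.6 FPKM on day 14, 59.2, 54.8, 45.6 and 55.1 FPKM on day 21, and 69.6, 62.6, 47.8 and 63.5 FPKM on day 28. Every one of these samples was above the highest day 0 sample. The log2 fold changes were 0.60, 0.75, 0.67 and 0.85, with adjusted p of 0.00737, 0.00109, 0.00324 and 0.000293. After median-ratio scaling they were 0.23, 0.36, 0.38 and 0.47, with adjusted p of 0.343, 0.121, 0.104 and 0.0373 by limma. After the same scaling day 1 was 0.49 (adjusted p = 0.0388), so none of these reached 1.5-fold. The day 7 call also ended without day 0 replicate 3 (0.54), day 0 replicate 4 (0.54), day 7 replicate 3 (0.57) or day 7 replicate 4 (0.56).

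RefSeq gives Rcan1 a far and an inner start, and the deposited gene-level values cannot separate their transcripts. The 250 bases before each start on the minus strand of GRCm38 are shown to compare their letters, with NFAT core matches (GGAAA on either strand) in capitals. The inner window, chr16:92400079-92400328, held 3 matches, beginning 227, 193 and 163 bases before the start, and also 1 CRE (TGACGTCA) and 1 AP-1 motif (TGANTCA). The far window, chr16:92466170-92466419, held no NFAT core. At least 3 NFAT cores were in 6.39% of the 32851 windows, a CRE in 1.55% and an AP-1 motif in 6.75%.

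Rcan1 inner start: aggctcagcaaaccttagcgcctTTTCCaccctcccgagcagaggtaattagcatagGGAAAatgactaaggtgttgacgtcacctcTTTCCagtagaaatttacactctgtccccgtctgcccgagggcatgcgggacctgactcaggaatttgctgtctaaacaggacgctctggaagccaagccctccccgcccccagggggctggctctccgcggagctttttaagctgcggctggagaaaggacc

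Rcan1 far start: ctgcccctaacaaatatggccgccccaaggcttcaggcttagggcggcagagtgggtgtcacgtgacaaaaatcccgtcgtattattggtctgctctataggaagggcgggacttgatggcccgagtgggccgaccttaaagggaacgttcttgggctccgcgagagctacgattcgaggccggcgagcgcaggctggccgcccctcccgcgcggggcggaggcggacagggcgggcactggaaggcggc

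Rcan2, the related regulator, fell from 15.8 ± 1.29 FPKM on day 0 to 8.74 ± 0.39 FPKM on day 1 and 3.51 ± 0.78 FPKM on day 3 (SD, n = 4), and was called lower at all 7 later times. Rcan1 made up 65.1% of the summed FPKM of the 3 Rcan genes on day 0 and 85.7% on day 28. In the list of 21 calcineurin and NFAT genes, 1 rose and 7 fell on day 3, and 4 rose and 4 fell on day 7. On day 28, 1 rose and 4 fell. The 4 that rose on day 7 included Ppp3ca and Rcan1, and the 1 that rose on day 28 was Rcan1. After median-ratio scaling these rises of Ppp3ca and Rcan1 fell short of 1.5-fold. Of all genes, 13.2%, 15.4% and 14.2% were called higher and 6.03%, 4.1% and 4.1% lower on day 3, day 7 and day 28. The medians of the list were -0.02, 0.10 and -0.0015 on these days, beside 0.06, 0.13 and 0.14 over all genes tested, and -0.20, -0.28 and -0.35 after median-ratio scaling, so that of day 7 turned sign. Nfat5, the calcineurin-independent NFAT gene, rose from 4.33 to 8.88 FPKM on day 3. Myoz1 and Myoz3, genes of calsarcins that tether calcineurin to the Z-disc, fell from 1077 to 254 FPKM on day 5 and from 48.6 to 4.78 FPKM on day 3.

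Between successive time points, 3 of the 9 genes were called from day 1 to day 3, against 10.6% of all genes, and 2 from day 3 to day 5, against 5.76%. From day 5 to 7, 7 to 14, 14 to 21 and 21 to 28, 0 of the 9 genes were called by limma, with 3, 2, 2 and 0 at an unadjusted p under 0.05. The shares of all genes called there were 0.657%, 0.634%, 0.453% and 0.199%. No other tool was run.

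Slow- and fast-fibre genes, on whose promoters such factors act, were followed as well. Of the 11 slow-fibre genes, 10 fell on day 1, 8 fell on day 3 and 9 rose on day 28. The list medians were -1.25, -1.35 and 1.27 beside 0.03, 0.06 and 0.14 over all genes tested, and -1.44, -1.59 and 0.89 after median-ratio scaling. On day 21, 3 of the list were called higher and 2 lower (11.8% and 3.93% of all genes), with a list median of -0.36. The step from day 21 to day 28 had a list median of 1.47. Tnnt1 and Tnni1, the slow troponin T and I genes, rose from 82.9 ± 41.0 to 379.6 ± 88.1 FPKM and from 19.3 ± 10.5 to 86.7 ± 26.8 FPKM on day 28. Myh7, the slow myosin heavy chain gene, was at 30.7 FPKM on day 0, 3.84 FPKM on day 3 and 129 FPKM on day 28. Myl3, the slow myosin light chain gene, fell from 194 to 27.0 FPKM on day 3. Of the 13 fast-fibre genes, 10 fell on day 3, and on day 28 2 rose (Myh1 and Actn3, neither past 1.5-fold after median-ratio scaling) and 8 fell. Of all genes, 2.49% were called lower on day 1, 6.03% on day 3 and 4.1% on day 28, and 14.2% higher on day 28. Casq1, the fast calsequestrin gene, fell from 687 ± 31.5 to 80.6 ± 21.7 FPKM on day 3, and Myh2, the myosin gene of oxidative fast fibres, from 440 to 74.2 FPKM. Actn3, an alpha-actinin gene of fast fibres, rose from 1865 to 3931 FPKM on day 14, and Myh1, the myosin gene of IIX fibres, from 500.5 to 918 FPKM on day 28.

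**Figure D5:**
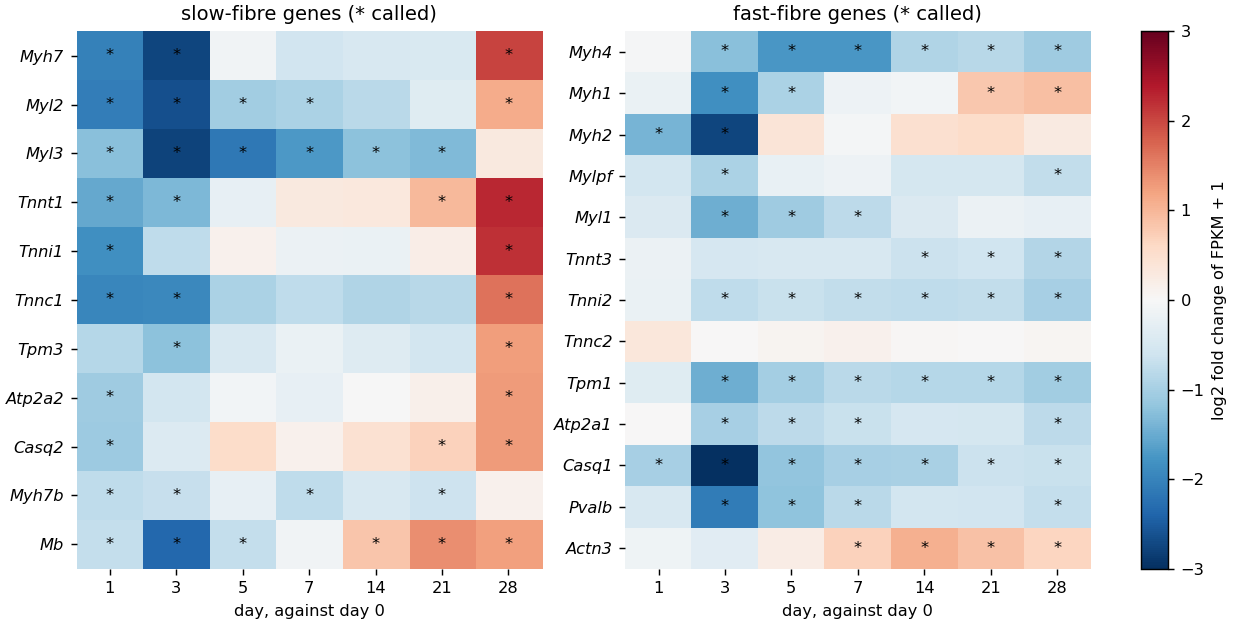
log2 fold changes of FPKM + 1 against day 0 (colour) for the slow-fibre (left) and fast-fibre genes (right) on each later day (columns); asterisks mark called values. Of the 11 slow-fibre genes, 10 are called lower on day 1, 8 lower on day 3 and 9 higher on day 28, while 10 of 13 fast-fibre genes are called lower on day 3.

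Markers of other cells moved over the same days as the 9 genes. Of the 6 macrophage markers, 3 rose on day 1, all 6 rose on day 3, day 5 and day 7 and 5 of 6 rose on day 14, day 21 and day 28, and their summed level went from 57.03 to 82.8 FPKM on day 0 to 199 to 444 FPKM on day 3. Of the 5 satellite cell markers, Cdh15 rose on day 3, day 5 and day 7 and Myf5 on day 14, day 21 and day 28, and their sum went from 7.74 to 8.47 FPKM on day 0 to 14.4 to 16.9 FPKM on day 5. Pax7, the defining gene of these cells, was at 0.61 FPKM on day 0 and 0.44 FPKM on day 3. The 5 Schwann cell markers summed to 64.6 to 142 FPKM on day 0 and 12.7 to 35.7 FPKM on day 3. The 5 lymphocyte markers summed to at most 3.503 FPKM in any sample. Apart from 1 lymphocyte marker on day 3, no marker was at 0 in all samples of a day. Of the 6 fibroblast markers, 1 fell on day 3 (Dpt), 3 rose on day 5 (Col1a1, Col3a1 and Lum), 2 on day 7 (Col3a1 and Lum) and Lum alone on day 14, day 21 and day 28, and their summed level was 473 to 615 FPKM on day 0 and 639 to 770 FPKM on day 5. On day 3, 3 of 5 endothelial markers, 1 of 5 mural markers and 1 of 4 adipocyte markers fell. From day 5 to day 28, 1 endothelial marker (Kdr) stayed called lower at each time, as did 1 mural marker (Rgs5), joined by Acta2 on day 7 and day 14, and 1 lymphocyte marker (Ptprc) was called higher. Of the Schwann cell markers, Ngfr was called higher from day 3 to day 28. The median of the fibroblast markers was 0.59 on day 5 and 0.40 on day 14, and 0.23 and 0.02 after median-ratio scaling. Of all genes, 6.34%, 13.2%, 14.9%, 15.4%, 14.6%, 11.8% and 14.2% were called higher on day 1, 3, 5, 7, 14, 21 and 28. The shares called lower were 2.49%, 6.03%, 3.86%, 4.1%, 3.83%, 3.93% and 4.1%. The part of these other cells in the changes of the 9 genes was not tested.

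The genes most like each of the 9 were ranked by Pearson r over the 32 samples among 11941 candidates with a mean of at least 1 FPKM. All points share the same libraries, so these values are descriptions. Tead4 was followed most closely by Dis3l2 (r = 0.982), Jpt1 (0.978) and Sync (0.976), and Ppp3ca by Mlec (0.949), Npepps (0.946) and Mtss1l (0.945). For Eya1 they were Smim10l1 (0.886), Phkg1 (0.879) and Ccdc85c (0.877), for Vgll2 Dusp18 (0.845), Jag2 (0.787) and Synpo2 (0.776), and for Tead1 Mief2 (0.825), Pik3c2b (0.823) and Synpo2 (0.822). Synpo2 was thus named for both Vgll2 and Tead1. The likeness was weaker for Rcan1 (Thbs4, 0.807), Sox6 (Rnf123, 0.785), Six4 (Ppp1r37, 0.764) and Nfatc1 (Osbp, 0.718). Among the 9 genes themselves, the highest r was between Tead4 and Ppp3ca (0.791), and the lowest between Eya1 and Tead4 (-0.626).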

How the data were processed

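RNA-seq of 32 GAS muscle samples, 4 at each of 8 time points, was analysed from the deposited table of FPKM values, 1 value per gene and sample. Per the labels, the authors used CASAVA, HISAT2 2.1.0 and DESeq2 with genome GRCm38. The counter, the strand setting and the annotation are not given in the sources used here. Ensembl identifiers were matched to symbols by GENCODE mouse release 21 (33356 of 33397), and no exon of the 9 genes overlapped an exon of another gene. Fragments were recovered from FPKM and merged exon length, with 99.3% to 99.4% of values of up to 200 fragments whole within 0.05.

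Genes with at least 0.1 FPKM in at least 4 samples (22071) were tested on log2(FPKM + 1) with limma 3.58.1 in R 4.3.3, with all 32 samples in 1 fit and a variance trend. A fold change on this scale understates that of low genes. The fit was tested on simulated data. Alternatives changed the pseudocount, the low-value filter, the scaling, the variance trend, the threshold, the samples in the fit, and left out each sample.

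The 9 genes and the gene lists were chosen with earlier results of these data known. From each list the 2 highest and 2 lowest called changes were named. Some of these are not reported here. Ppp3cb, Rcan2, Yap1 and Wwtr1, and markers of other cells, were named outside this rule after their values were seen. Promoter letters are RefSeq's for GRCm38.p6, given for 4 of the 9 genes. Of these the windows of Six4 and Sox6 are not shown.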

Additional observations from a re-analysis of the deposited data

Results flagged for a closer look

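In 1 of the 72 groups of 4 samples checked over the 9 genes, a sample stood far from the other three: Eya1 on day 14 was 3.12 FPKM in replicate 3 and 2.53 to 2.61 FPKM in the others. About 3.6 such groups would be met by chance alone.

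In 5 cases the change from day 0 differed between successive time points, tested as the difference of the 2 time points in the limma fit over all genes. Between day 1 and day 3, Tead4 differed by 1.499 on the log2 scale, Vgll2 by 1.49 and Rcan1 by -0.69. Between day 3 and day 5, Ppp3ca differed by 0.63 and Vgll2 by -0.67. The Rcan1 difference came to -0.47 without day 3 replicate 1 and to -0.52 without day 1 replicate 1, both short of 1.5-fold. The Ppp3ca difference was 0.57 without day 3 replicate 2, and the Vgll2 difference from day 3 to day 5 was -0.58 without day 3 replicate 4, also short of 1.5-fold.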

How the results depend on the processing

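Without a fold threshold (adjusted p alone), 6 of the 9 genes were called on day 5 (3 otherwise), 5 on day 14, 6 on day 21 and 5 on day 28 (2 otherwise at each), 6 from day 1 to day 3 (3 otherwise) and 1 from day 5 to day 7 (0 otherwise). Median-ratio scaling gave 4 called genes on day 21 and 4 on day 28, and 1 from day 3 to day 5 (2 otherwise). Quantile normalization gave 4 on day 28, and the total without mitochondrial genes 1 on day 21. The other 127 counts stayed within 1.5 times. The shares of all genes given earlier are for the values as deposited with the 1.5-fold limit. The counts in these other settings have no such share beside them. Leaving out 1 sample gave 1 to 2 called genes on day 3 and 1 to 2 from day 3 to day 5, where day 3 replicate 2 or, for the step, replicate 4 decided it. The log2 difference in the Tead4 to Tead1 ratio from day 0 was, when 1 sample was left out, 0.42 to 0.62 on day 1, 1.497 to 1.55 on day 3, 1.77 to 1.84 on day 5, 2.14 to 2.26 on day 7, 1.72 to 1.84 on day 14, 1.47 to 1.57 on day 21 and 1.57 to 1.64 on day 28. With 3 against 4 samples the exact p cannot go below 0.0571, so no call was possible there. Of the 63 changes from day 0, 15 turned sign under median-ratio scaling and 14 under quantile normalization. Those with an adjusted p under 0.05 before or after were, under median-ratio scaling, Six4 on day 5 (-0.037), Sox6 on day 7 (-0.32), Tead1 on day 14 (-0.33) and day 28 (-0.30) and Ppp3ca on day 28 (-0.036), and under quantile normalization, Six4 on day 5 (-0.031), Sox6 on day 7 (-0.32) and Tead1 on day 14 (-0.27). Both scalings set the shift of all genes near 0. Depth held the 9 genes to between 120 and 6481 fragments a sample. No paired analysis was possible because the columns carry no replicate numbers of the labels.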
